A study of Mus musculus with 384 samples.

Results

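The T cell receptor complex and its first signalling steps were followed through 9 genes in skin regulatory T (Treg) cells of the mouse ear. They were Cd3d, Cd3e, Cd3g, Cd247, Cd4, Lck, Zap70, Lat and Cd2, taken by symbol from a list, and all 9 were among the 50556 gene symbols of the deposited matrix, of which 30597 had a count. Single Treg cells had been sorted into wells of 4 plates and sequenced after oligo-dT priming and template switching. Per the labels, the ears of 2 mice per treatment had received 5% imiquimod, which activates Toll-like receptor signalling and inflames the skin, or vehicle, applied 3 times before cells were taken on day 3. No label gave a strain, age, sex or genotype of the mice. Plates 1 and 2 held the vehicle cells and plates 3 and 4 the imiquimod cells, called vehicle plates 1 and 2 and imiquimod plates 1 and 2 below. Each plate had 87 single-cell wells, 4 wells with 10 cells and 5 wells without a cell. The wells with 10 cells or none carried no treatment label and entered no comparison between treatments.

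The alpha and beta chains of the T cell receptor bind peptide on MHC molecules but have almost no tail inside the cell. The signal leaves through the CD3 gamma, delta and epsilon chains (Cd3g, Cd3d, Cd3e) and the zeta chain (Cd247), whose tails are phosphorylated by the kinase Lck, which the co-receptor CD4 brings to the receptor. Zap70 then docks on the phosphorylated tails and phosphorylates the membrane scaffold Lat, while Cd2 is an adhesion receptor that binds Cd48 on a neighbouring cell. Treg cells depend on the T cell receptor for their development and their suppressive function.

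A single-cell well was kept as a cell when at least 500 genes and at least 10000 counts (reads assigned to genes) were present. This left 62 and 58 vehicle cells and 38 and 44 imiquimod cells of the 87 wells per plate, with 47481 to 5946386 counts per cell. Kept cells had a median of 1040 and 1503 genes in vehicle and 975 and 1093 in imiquimod. The cell type label was checked against marker genes. The receptor genes Tcra and Tcrb had a count in 69.8% and 69.3% of the kept cells, and Foxp3, the defining Treg transcription factor, in 75 cells (37.1%). In the 20 no-cell wells, Tcra had a count in 3, Tnfrsf18 in 2, Tcrb and Ikzf2 in 1 each and Foxp3 in 0. Outside the T cell and Treg markers, the haemoglobin gene Hba-a1 had a count in 3 of these wells. Tcrg, Kit, Adgre1, Zbtb46, Dct, S100a8, Col1a2, Hba-a2 and Hbb-bs had a count in 1 each. Cd8a had a count in 3 cells and Cd8b1 in 1. Of the 7 gamma delta T cell markers in the file 3 had a count, Tcrg in 30 cells (14.9%), Cd163l1 in 11 and Sox13 in 4, with Tcrd at 0, and their summed level was 1.02 to 67.1 CPM (counts scaled to a total of 1000000) on vehicle plates against 10.8 to 11.2 CPM on imiquimod plates. Of 6 natural killer and innate lymphoid markers, Klrb1c, Klrd1 and Klri2 had a count in 1 cell each, with Ncr1 at 0, and the sum was at most 2.74 CPM. Of the 7 macrophage or monocyte markers 4 had a count, with C1qa, C1qb and Fcgr1 at 0. Adgre1 was present in 29.7% of kept cells, Lyz2 in 9 cells, Cd68 in 4 and Csf1r in 2. Their sum was 4.31 to 125.7 CPM in vehicle and 13.2 to 65.0 CPM in imiquimod. Of the 6 dendritic or Langerhans cell markers 5 had a count, with Cd209a at 0. Zbtb46 was present in 33.7% of kept cells, Flt3 in 10 cells, Itgax in 4, Xcr1 in 2 and Cd207 in 1. These markers summed to 141.1 to 397.2 CPM in vehicle and 253.97 to 527.2 CPM in imiquimod. Of the 5 mast cell markers 2 had a count, Kit in 25.8% of vehicle and 4.88% of imiquimod cells and Cpa3 in 4 cells, with Mcpt4 and Tpsb2 at 0, and they summed to 115.6 to 272.6 CPM in vehicle and 4.50 to 6.42 CPM in imiquimod. Of the 3 melanocyte markers 2 had a count, with Tyrp1 at 0. Dct was in 3.33% of vehicle and 19.5% of imiquimod cells, and Pmel in 15.0% and 14.6%. Their sum was 73.9 to 96.4 CPM in vehicle and 113.2 to 149.2 CPM in imiquimod. The haemoglobin gene Hba-a1 had a count in 9.17% of vehicle and 43.9% of imiquimod cells, and the summed level of the 4 erythroid markers, all with a count, was 24.4 to 654.6 CPM on vehicle plates and 334.4 to 654.3 CPM on imiquimod plates. The part of all these markers, and of the gene yield, in the values below was not tested.

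Each of the 9 genes was seen in a minority of the cells. Over the 4 plates, Lck had a count in 64, Cd2 in 63, Cd247 in 58, Cd3e and Cd4 in 48 each, Zap70 and Lat in 38 each, and Cd3d and Cd3g in 25 each. At least 1 of the 9 was present in 68.8% of the kept cells. In contrast, none of the 9 had a count in any of the 20 no-cell wells (a share of up to 15.0% is allowed), but those wells were shallow, with a median of 47.5 genes. They held up to 1527760 counts, and 1 of them passed the limits set for a cell. In the 16 wells with 10 cells, the number of wells with a count ranged from 11 for Cd4 to 16 for Cd3g, Lck and Lat. Counts came without molecular identifiers, so intervals and limits cover counting error only.

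**Figure D1:**
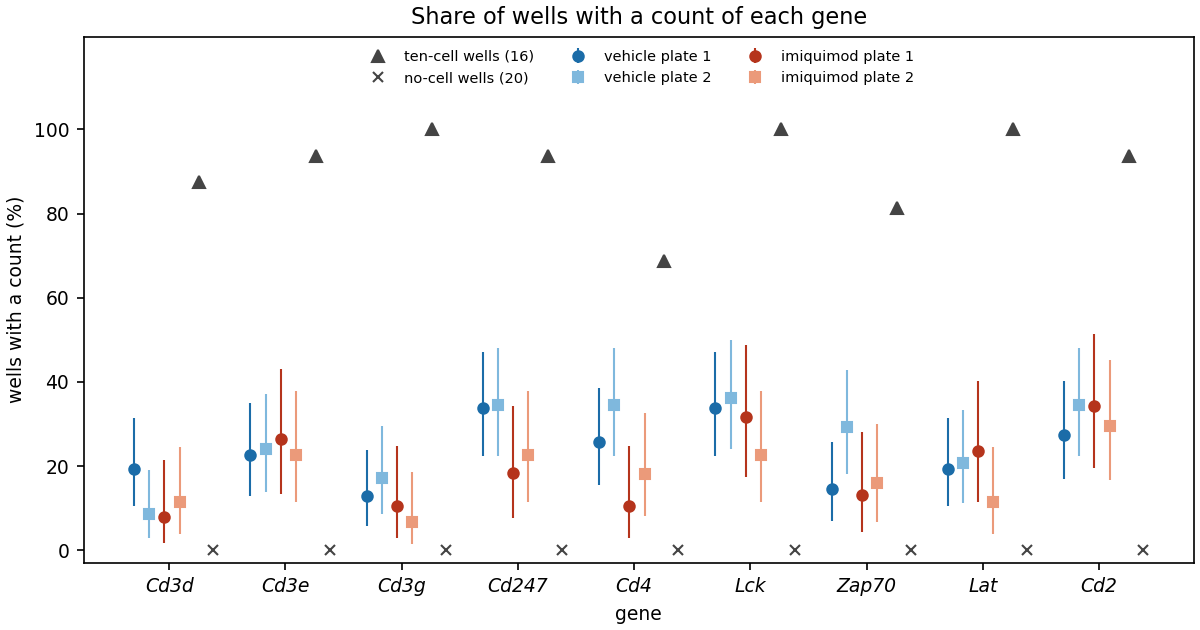
The share of wells with at least 1 count (vertical axis, percent) is plotted for each of the 9 genes, for kept cells of the 4 plates with exact 95% binomial intervals (bars), for the 16 wells with 10 cells (triangles) and for the 20 wells without a cell (crosses). Single-cell shares lie between 6.82% and 36.2%, 10-cell shares lie above all of them and every no-cell share is 0.

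Among the receptor's own chains, Cd3g and Cd3d are neighbours on chromosome 9 and are read away from each other. Their start sites are 1355 bases apart, and that of Cd3e is 27825 bases from that of Cd3d, while Cd247 lies on chromosome 1. The RefSeq promoter windows of these 4 genes (250 bases before to 50 after the start site, build GRCm38.p6) are shown because pairs of the 3 clustered genes had the highest co-detection ratios. Capitals mark the ETS core GGAAGT, searched on both strands, so a match on the other strand reads ACTTCC.
Cd3d, chr9:44981536-44981835, plus strand: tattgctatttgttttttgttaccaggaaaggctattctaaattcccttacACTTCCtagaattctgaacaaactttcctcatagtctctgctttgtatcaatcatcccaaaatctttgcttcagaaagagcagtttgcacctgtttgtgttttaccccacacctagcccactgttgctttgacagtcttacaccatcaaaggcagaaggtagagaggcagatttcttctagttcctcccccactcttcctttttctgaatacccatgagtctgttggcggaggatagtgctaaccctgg
Cd3g, chr9:44980382-44980681, minus strand: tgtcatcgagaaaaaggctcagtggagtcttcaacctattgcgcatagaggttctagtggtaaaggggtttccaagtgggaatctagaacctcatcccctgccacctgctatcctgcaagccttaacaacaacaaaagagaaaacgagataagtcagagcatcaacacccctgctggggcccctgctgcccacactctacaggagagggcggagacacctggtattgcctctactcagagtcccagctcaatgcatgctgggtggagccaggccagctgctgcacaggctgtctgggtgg
Cd3e, chr9:45009562-45009861, minus strand: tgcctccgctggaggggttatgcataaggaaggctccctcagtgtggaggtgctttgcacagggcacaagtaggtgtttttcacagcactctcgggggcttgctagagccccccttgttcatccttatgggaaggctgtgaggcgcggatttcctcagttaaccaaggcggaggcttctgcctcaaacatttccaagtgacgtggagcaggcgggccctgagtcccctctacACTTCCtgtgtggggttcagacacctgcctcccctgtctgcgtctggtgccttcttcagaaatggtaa
Cd247, chr1:165788431-165788730, plus strand: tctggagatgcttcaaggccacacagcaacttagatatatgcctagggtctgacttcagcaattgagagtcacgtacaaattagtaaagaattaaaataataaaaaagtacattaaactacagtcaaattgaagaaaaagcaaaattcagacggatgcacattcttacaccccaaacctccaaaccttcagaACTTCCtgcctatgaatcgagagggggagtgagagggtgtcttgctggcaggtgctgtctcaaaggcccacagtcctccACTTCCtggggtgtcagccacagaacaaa

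The ETS core was found once each in the Cd3d and Cd3e windows and at 2 places in the Cd247 window, and not in the Cd3g window. It occurs in 23.8% of the 32851 RefSeq promoter windows of the same length. No TATA box (TATAAA, in 13.6% of windows) and no RUNX core (TGTGGT, in 16.8%) was found in these 4 windows on either strand. The GATA core (AGATAA, in 11.2%) was found in the Cd3g window alone among the 4. The E-box CANNTG, which reads the same on both strands and is in 72.3% of windows, was found at 1 place for Cd3d, 2 for Cd3e, 2 for Cd247 and 4 for Cd3g. None of the matches shown overlaps another motif searched. Such matches describe letters only, and no binding was measured here. RefSeq windows were matched for 7 of the 9 genes, all but Cd4 and Cd2.

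Cd3e, the epsilon chain shared by both CD3 dimers, was the most often detected of the 3 CD3 genes. It had a count in 22.6% and 24.1% of the cells of the vehicle plates and in 26.3% and 22.7% of those of the imiquimod plates, means of 23.4% ± 1.10 and 24.5% ± 2.54 (SD, n = 2 plates each), so the treatments overlapped. In the cells with a count its level had a median of 384.2 and 322.6 CPM on the vehicle plates, and 18.5 and 433 CPM on the imiquimod plates. The 10 detecting cells of imiquimod plate 1 thus included mostly very low levels, from 0.262 up to 3993 CPM, and 1 cell held 69.4% of that plate's Cd3e counts. Summed over the cells of a plate, the normalised level was 276.2 and 147.4 CPM for vehicle and 389 and 470 CPM for imiquimod, a log2 fold change of 1.02 ± 1.16 (SE).

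Cd3g, the gamma chain, was detected in 12.9% and 17.2% of the vehicle cells and in 10.5% and 6.82% of the imiquimod cells, means of 15.1% ± 3.07 and 8.67% ± 2.62 (SD, n = 2). Both imiquimod plates were below both vehicle plates. The few imiquimod cells with a count, 4 and 3 of them, had median levels of 1851 and 1821 CPM, against 606 and 477 CPM in the 8 and 10 vehicle cells. Plate sums of Cd3g accordingly ran the other way from its detection, at 194.2 and 126.8 CPM for vehicle and 542 and 242.5 CPM for imiquimod (log2 fold change 1.29 ± 1.27, SE).

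Cd3d, the delta chain, had a count in 19.4% and 8.62% of vehicle cells and in 7.89% and 11.4% of imiquimod cells, with overlapping plates. Its plate sums were 132.1 and 47.0 CPM for vehicle and 56.4 and 81.9 CPM for imiquimod, a log2 fold change of −0.37 ± 2.27 (SE). A single cell held 90.97% of the Cd3d counts of imiquimod plate 1, where 3 cells had a count.

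Cd247, which encodes the zeta chain with the largest share of the complex's signalling motifs, was found in 33.9% and 34.5% of vehicle cells and in 18.4% and 22.7% of imiquimod cells. The means were 34.2% ± 0.433 and 20.6% ± 3.04 (SD, n = 2), a gap larger than the spread within either treatment. Its plate sums were also apart, at 692 and 512 CPM for vehicle and 322.98 and 407 CPM for imiquimod (log2 fold change −0.72 ± 0.95, SE). On imiquimod plate 1, 85.3% of the Cd247 counts came from 1 cell. Taking the CD3 and zeta chains as a group, 41.9% and 41.4% of vehicle cells and 39.5% and 43.2% of imiquimod cells had a count of at least 1 of them, so the plates overlapped. With every cell thinned to 400000 counts they did not, at 45.1% and 43.6% against 31.25% and 38.6%, a difference of −9.42 percentage points. Over all single-cell wells the shares were 34.5% and 32.2% against 21.8% and 27.6%, again without overlap.

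Cd4, the co-receptor for MHC class II by which helper and most Treg cells are recognised, was detected in 25.8% and 34.5% of vehicle cells and in 10.5% and 18.2% of imiquimod cells. Its means of 30.1% ± 6.14 and 14.4% ± 5.41 (SD, n = 2) differed by 15.8 percentage points, the widest gap in share among the 9 genes. The 48 cells with a count spanned 0.365 to 6554 CPM with a median of 271.6 CPM. Plate sums of Cd4 were 418 and 497 CPM for vehicle and 58.0 and 204.8 CPM for imiquimod, a log2 fold change of −1.80 ± 1.27 (SE), the lowest of the 9. Detection and level thus lay on the same side for Cd4 and for Cd247.

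Lck, the Src-family kinase that starts the signal, was present in 33.9% and 36.2% of vehicle cells and in 31.6% and 22.7% of imiquimod cells, means of 35.0% ± 1.65 and 27.2% ± 6.26 (SD, n = 2). Its highest single level was 58885 CPM, in a cell of imiquimod plate 1. The plate sums were 1093 and 732 CPM for vehicle and 3161 and 505 CPM for imiquimod, so the imiquimod plates stood on either side of the vehicle plates (log2 fold change 1.01 ± 0.78, SE).

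Zap70, the kinase recruited to the phosphorylated chains, had a count in 14.5% and 29.3% of vehicle cells and in 13.2% and 15.9% of imiquimod cells. Plate sums of Zap70 were 43.9 and 238.99 CPM for vehicle and 180 and 594 CPM for imiquimod, again overlapping, with a log2 fold change of 1.45 ± 1.40 (SE). The fold change was 3.17 without vehicle plate 2 and 0.65 without the other vehicle plate. Leaving out imiquimod plate 2 gave 0.48, and leaving out plate 1 of that treatment gave 2.19. On imiquimod plate 1 a single cell held 97.2% of its counts, and on imiquimod plate 2 a single cell held 53.7%.

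Lat, the scaffold that Zap70 phosphorylates, was detected in 19.4% and 20.7% of vehicle cells and in 23.7% and 11.4% of imiquimod cells, with imiquimod plates on both sides of the vehicle ones. The plate sums showed the same arrangement, 258.1 and 175.3 CPM for vehicle against 890 and 154.1 CPM for imiquimod (log2 fold change 1.27 ± 1.19, SE).

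Cd2, the adhesion receptor, was detected in 27.4% and 34.5% of vehicle cells and in 34.2% and 29.5% of imiquimod cells, means of 31.0% ± 4.99 and 31.9% ± 3.30 (SD, n = 2). In the cells with a count, the median level was 1047 and 770 CPM on the vehicle plates against 2060 and 2454 CPM on the imiquimod plates. The lowest of the 26 imiquimod cells with a count was at 68.9 CPM, whereas the 37 vehicle cells reached down to 1.13 CPM. This was not particular to Cd2. The lowest imiquimod and vehicle cells were at 273.8 and 0.347 CPM for Lat and at 759 and 0.171 CPM for Cd3g. Cd2 plate sums were 457 and 400 CPM for vehicle and 2005 and 836 CPM for imiquimod, a log2 fold change of 1.73 ± 0.76 (SE) and the largest of the 9.

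**Figure D2:**
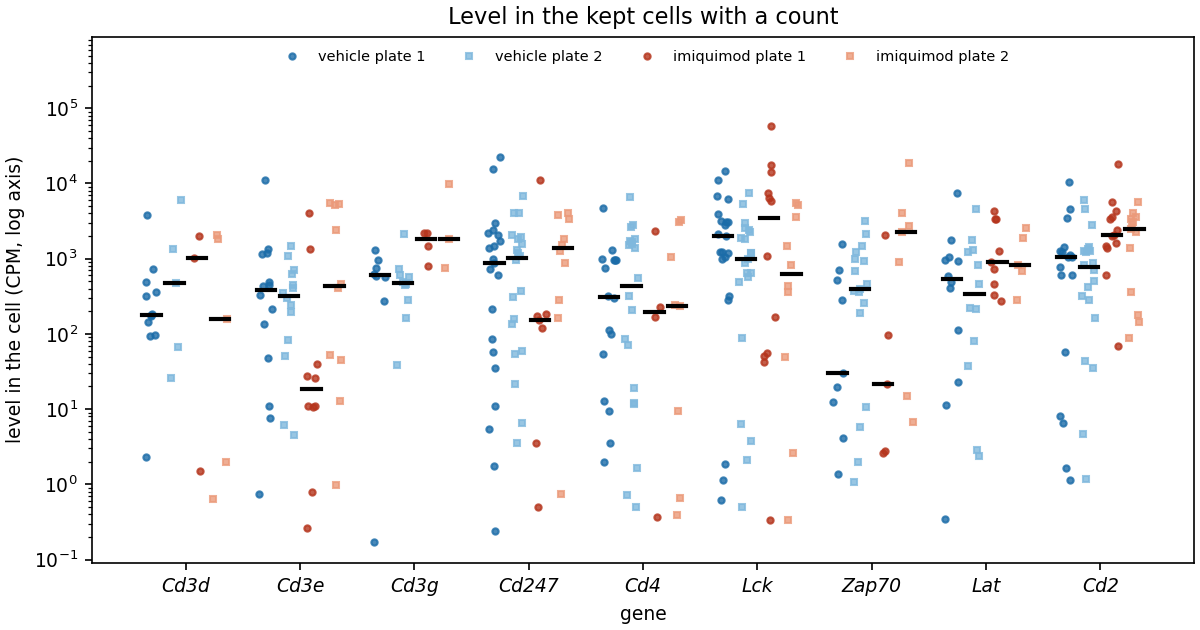
The level in each kept cell with a count (vertical axis, CPM, log scale) is plotted for the 9 genes, each point a cell, by plate, with a black bar at the plate's median. Levels of 1 gene span from under 1 CPM to over 1000 CPM on the same plate. All imiquimod cells shown lie at 68.9 CPM or above for Cd2, at 273.8 CPM or above for Lat and at 759 CPM or above for Cd3g.

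None of these differences in summed level passed the test across the transcriptome. With edgeR's quasi-likelihood test on the 4 plate sums, 0% of the 14462 genes tested had an adjusted p under 0.05, and 1669 had an unadjusted p under 0.05. Of the 9 genes, 0 were called. The unadjusted p was under 0.05 for Cd2 alone (0.0416, edgeR adjusted p = 0.42), and the edgeR adjusted p of the other 8 ranged from 0.63 to 0.98. The normalised levels of the 2 vehicle and the 2 imiquimod plates did not overlap for 5 of the 9 (Cd3e, Cd3g, Cd247, Cd4, Cd2), beside 44.8% of all genes tested. The log2 fold change was positive for 6 of the 9, with a median of 1.02, and the median of all genes tested was −0.26. With DESeq2's size factors in place of TMM, the median of all genes was 0.11 and edgeR again called 0. DESeq2 on the same sums called 3740 genes, among them Cd2 (adjusted p = 0.013), whose adjusted p in the 11 other alternatives ran from 0.066 without imiquimod plate 2 to 0.77 after thinning. No label ties a plate to a mouse, so these p-values measure the spread between plates, and a plate effect shared by the plates of a treatment cannot be told apart from it.

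The sign of several of these fold changes rested on how cells were weighted or on 1 plate. When the mean log2(CPM + 1) over the cells of a plate was compared with limma, so that each cell weighed the same, the differences were −0.20 for Cd3e, −0.33 for Cd3g, −0.75 for Lck and −0.49 for Zap70. Without imiquimod plate 1, the edgeR fold changes of Lck and Lat were −0.76 and −0.39, and 1.02% of genes tested were called. Without imiquimod plate 2, 794 genes were called, none of them among the 9. Without vehicle plate 1, the fold change of Cd3d was 0.50. With each plate left out in turn, the fold change ran from 0.65 to 1.48 for Cd3e, from 0.69 to 1.86 for Cd3g, from −0.91 to −0.46 for Cd247, from −2.87 to −1.05 for Cd4 and from 1.06 to 2.33 for Cd2. Cd247 and Cd4 stayed below 0 and Cd2 above 0 in all 12 alternative settings run.

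For the share of cells with a count, the exact permutation test over 2 against 2 plates cannot give a two-sided p below 0.333. Cd3g, Cd247, Cd4 and Lck reached that p, each lower on both imiquimod plates (0.75 after Benjamini-Hochberg adjustment over the 9 genes). These 4 of 9 stand beside 56.1% of the 3651 genes with a count in at least 25 kept cells, of which 85.9% had a lower mean share in imiquimod cells, with a median difference of −7.79 percentage points. After each cell was thinned to 400000 counts, which left 51 and 55 vehicle and 32 and 44 imiquimod cells, Cd3e (27.5%, 23.6%, 18.8% and 20.5% in plate order) and Zap70 (17.6%, 27.3%, 12.5% and 15.9%) were lower on both imiquimod plates as well. That made 6 of 9 beside 58.4% of the same genes. The thinned cells still differed in yield, with medians of 889 and 1147 genes for vehicle and 647.5 and 607 for imiquimod, and the part of this in the shares was not tested.

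Levels of the 9 genes were compared with each other per kilobase of annotated exon (unscaled CPM of the plate sum per kb, mean ± SD, n = 4 plates). Cd2 at 458 ± 240 and Lck at 410 ± 248.2 came first and differed by less than their spread. Lat followed at 114.6 ± 75.2, then Cd247 at 94.6 ± 45.8, Zap70 at 86.7 ± 75.9, Cd4 at 82.1 ± 65.9, Cd3g at 74.8 ± 28.2, Cd3e at 73.7 ± 25.9 and Cd3d at 44.1 ± 25.1. From Lat down to Cd3e, each gene differed from its neighbours in the order by less than the spread over plates. The mean of Cd3d lay below that of Cd3e by more than the SD of either. On vehicle plate 1, Cd3d was the higher, at 79.5 against 73.9 CPM per kb. In the wells with 10 cells, Cd3d was at 233.8, 44.9, 974.6 and 108.1 CPM per kb in plate order. Cd3e was at 88.3, 51.9, 87.4 and 68.01 CPM per kb in those wells, so the order was not kept there. In single cells, Lck exceeded Lat on all 4 plates. The levels were 408 against 101.9, 319.2 against 81.0, 749 against 223.3 and 162.1 against 52.4 CPM per kb. In the wells with 10 cells, Lck was below Lat on plate 3 (215.1 against 283.8 CPM per kb) and above it on the other plates.

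The number of the 9 genes seen in a cell varied widely. None was seen in 63 cells, 1 or 2 in 79 cells, 3 to 5 in 37 cells and 6 or more in 23 cells, of which 2 cells had all 9. The mean per cell was 2.10 and 2.40 genes on the vehicle plates against 1.76 and 1.61 on the imiquimod plates (exact two-sided permutation p = 0.333, the smallest 2 against 2 plates allow). Cells with 6 or more made up 12.9% and 19.0% of the vehicle plates and 5.26% and 4.55% of the imiquimod plates. Beside these gaps, 85.9% of the 3651 genes with a count in at least 25 kept cells had a lower mean share in imiquimod cells. The share without any of the 9 did not separate the treatments, at 35.5% and 25.9% for vehicle and 34.2% and 29.5% for imiquimod. Over all single-cell wells, including those below the limits for a cell, it was 44.8% and 40.2% against 63.2% and 51.7%, with no overlap. Fewer wells passed those limits on the imiquimod plates, and the part of this was not tested.

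**Figure D3:**
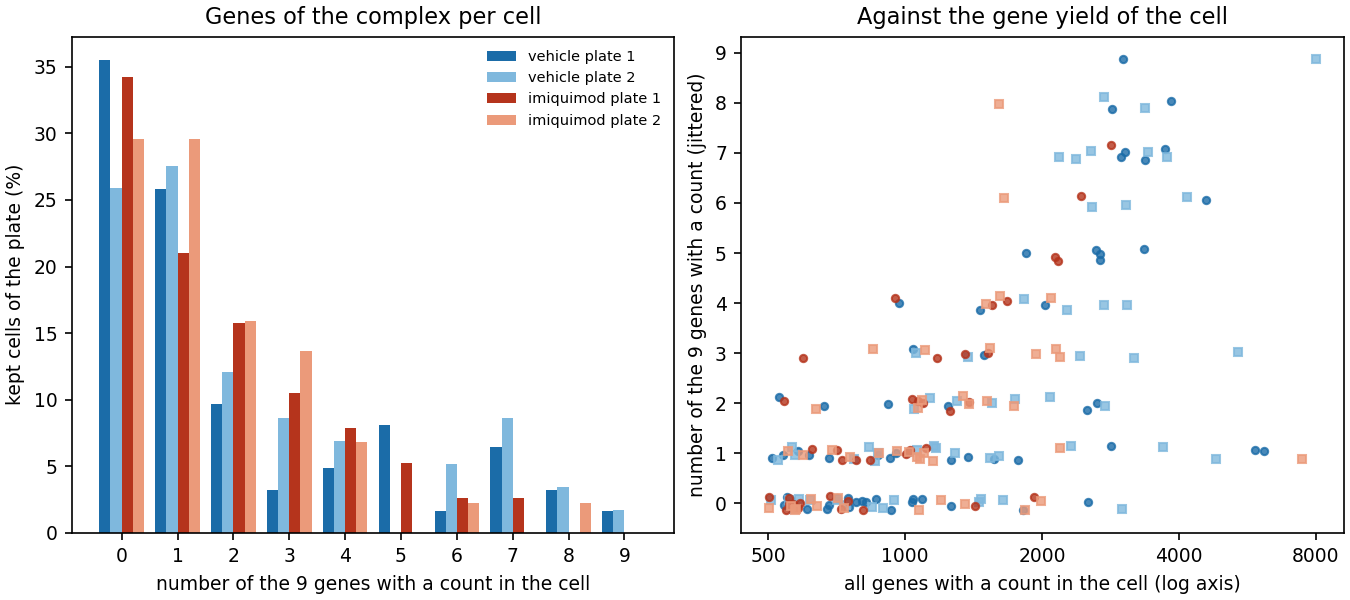
Left, the share of each plate's kept cells (vertical axis, percent) by the number of the 9 genes with a count in the cell. Right, that number (jittered vertically) against all genes with a count in the cell (log axis), each point a kept cell, which shows that the cells with 6 or more of the 9 have at least 1607 genes.

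This number followed the gene yield of the cell. Cells with none of the 9 had a median of 722 genes, those with 1 or 2 had 1067, those with 3 to 5 had 1829 and those with 6 or more had 3018. Within plates, Spearman's correlation of the number of the 9 with the number of all genes detected was 0.63, 0.70, 0.67 and 0.52 over 62, 58, 38 and 44 cells. Both counts come from the same library and share its depth, so this is a description. When each plate was split at its median gene number, the cells below it had a mean of 0.762 of the 9 genes and those above it 3.27. In plate order the lower means were 0.710, 0.793, 0.737 and 0.818, and the upper means 3.48, 4.00, 2.79 and 2.41. The upper cells had a median of 2628 and 2740 genes on the vehicle plates against 1383 and 1610 on the imiquimod plates. The part of this yield in the gap between treatments was not tested. Cd3g had no count in any of the lower-yield cells and a count in 24.8% of the upper ones, whereas Lck had a count in 14.9% and 48.5%.

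Cells without any of the 9 still carried T cell transcripts. Of those 63 cells, 82.5% had a count of Tcra or Tcrb and 19.0% had Foxp3, and 1 cell had neither a receptor gene nor any of the 6 Treg markers. Tcra or Tcrb was present in 84.8% of the cells with 1 or 2 of the 9, in 91.9% of those with 3 to 5 and in all 23 with 6 or more. Foxp3 was present in 26.6%, 56.8% and 91.3% of the same classes.

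The 9 genes were seen together more often than their single shares would give. If detection were independent within each plate, the 36 pairs would have added up to 366.7 joint detections over the kept cells, and 737 were counted, a ratio of 2.01. The ratio was 2.26 and 1.97 on the vehicle plates against 1.80 and 1.72 on the imiquimod plates, a mean of 1.94 ± 0.240 (SD, n = 4 plates). On the vehicle plates 35 and 36 of the 36 pairs were above 1. On the imiquimod plates 29 and 30 were, and the lowest ratio on each was 0. All 36 pairs were above 1 over the 4 plates together. Over all pairs of the 3651 genes with a count in at least 25 cells, the same ratio was 1.34 and 86.1% of pairs were above 1, with 2.13 as the 95th percentile of the pair ratios. For the 3165 of them with a count in at most 64 cells, as for the 9, the ratio was 1.42. Of their pairs 85.5% were above 1, and the 95th percentile was 2.21.

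Pairs of CD3 genes had the highest ratios. The largest value a ratio can reach is higher for genes seen in fewer cells. Cd3d and Cd3g had a count in 25 cells each, the fewest of the genes followed, against 64 for Lck and 63 for Cd2. On the imiquimod plates, Cd3d had a count in 3 and 5 cells and Cd3g in 4 and 3. The part of these shares in the order of the pairs was not tested. Cd3d and Cd3g were both present in 12 cells where 3.07 were expected (ratio 3.91), which means that 48.0% of the 25 cells of each also had the other. Cd3e and Cd3g shared 20 cells against 5.95 expected (ratio 3.36), so that 80.0% of the Cd3g cells also had Cd3e. Cd3e and Cd2 shared 37 cells against 15.0 expected (ratio 2.46). Cd4 and Lck, whose proteins bind each other, shared 31 cells against 15.7 expected (ratio 1.97), and Zap70 and its substrate Lat shared 16 against 7.24 (ratio 2.21). The lowest ratio was that of Cd4 and Zap70, with 15 cells against 9.98 expected (1.502).

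**Figure D4:**
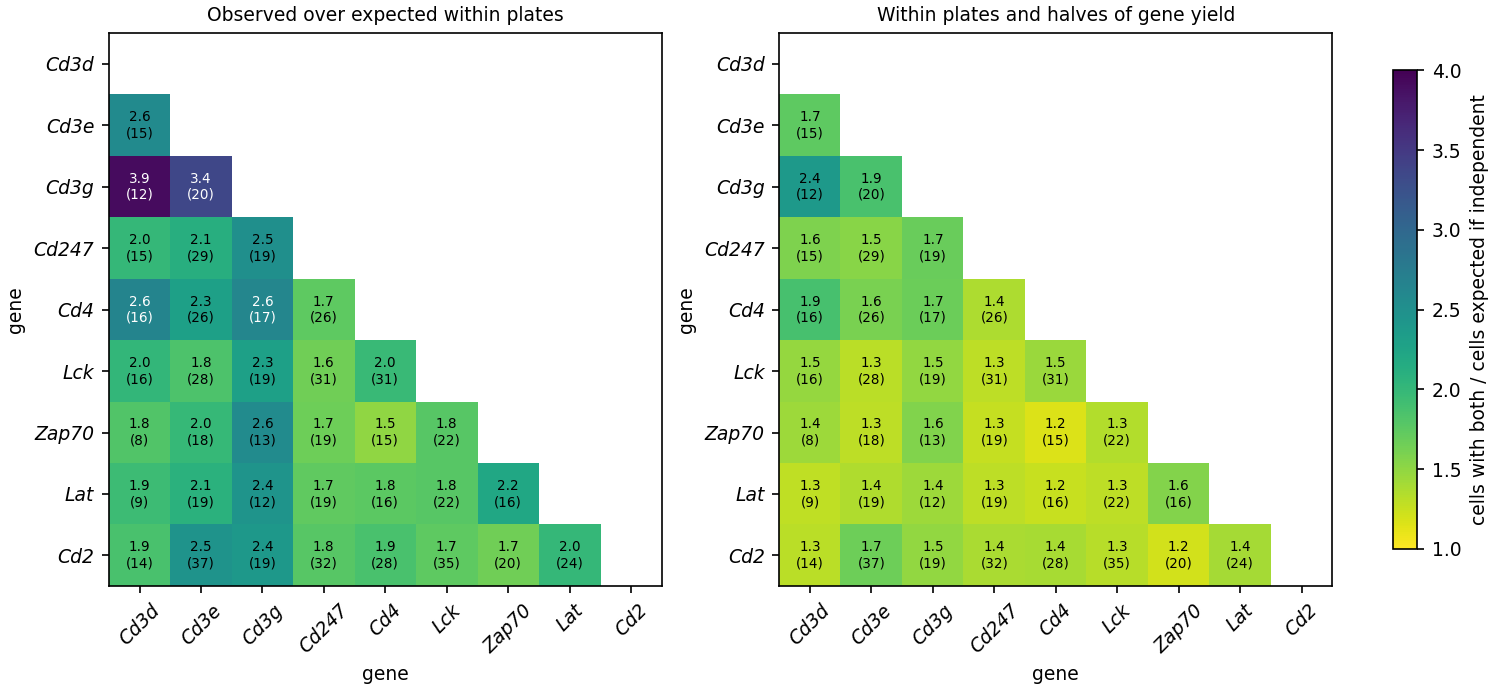
Each square gives, for a pair of the 9 genes, the number of kept cells with both over the number expected if detection were independent (colour and upper figure), with the number of cells with both in brackets. Expectations are within plates on the left and within plates and yield classes split at the plate's median gene number on the right, where every ratio is lower and the pair of Cd3d and Cd3g is again the highest at 2.38.

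The joint detection was smaller once cells of like yield were compared, a description added after the data were seen. With expectations formed within each plate and on each side of its median gene number, the overall ratio was 1.44, and that of Cd3d with Cd3g was 2.38. With each plate divided into 3 yield classes it was 1.28. The matching ratios over all pairs of the 3651 genes were 1.10 and 1.05, and 1.13 and 1.07 for the 3165 genes in 25 to 64 cells. All 36 pairs stayed above 1 in both divisions, beside 67.6% and 60.0% of all pairs of the 3651 genes.

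Foxp3 was seen more often in cells with these genes. Cd3e had a count in 44.0% of the 75 Foxp3 cells and 11.8% of the others, Lck in 54.7% and 18.1%, Cd4 in 42.7% and 12.6%, and Cd3g in 25.3% and 4.72%. The shares lay closer for Cd247, at 40.0% and 22.0%. Joint cells with Foxp3 exceeded the number expected within plates by a ratio of 1.37 for Cd247 to 2.00 for Cd3g. Within plates and yield classes the ratio ran from 1.09 for Cd247 and 1.16 for Zap70 to 1.46 for Lat. The receptor beta gene Tcrb was present in 80.0% of the Cd3d cells, the lowest share of the 9, and in 93.75% of the Cd3e cells, the highest, beside 69.3% of all kept cells. Within plates and yield classes, the Tcrb ratio was 0.949 for Cd3d and 0.995 for Cd4, and at most 1.13, for Cd247. With Tcra, the ratios of the 9 genes within plates lay between 1.09 for Lat and 1.19 for Zap70, and within plates and yield classes between 1.02 for Cd4 and 1.15 for Zap70.

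The genes whose levels ran most like the 9 across cells were named by correlation. For each gene with a count in at least 20% of the kept cells (1547 genes), the level was correlated with the mean log2(CPM + 1) of the 9 within each plate, after a linear fit on gene yield, and the 4 plate values were averaged. The highest was Clic1, which encodes an intracellular chloride channel protein, at a mean r of 0.47. It was followed by the calponin gene Cnn2 (0.43), the tetraspanin gene Cd53 (0.42), the MHC class I light chain B2m (0.40), the cytokine receptor common gamma chain Il2rg (0.39) and Patl2 (0.39). In plate order r was 0.42, 0.60, 0.17 and 0.41 for B2m and 0.42, 0.58, 0.14 and 0.41 for Patl2. Whether these 2 genes share reads was not tested. The median over the 1547 genes was 0.0571 and the 95th percentile 0.279. These values share library, depth and cell quality and are a description.

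Other genes of T cell receptor signalling were taken from a list of 58. Of these, 56 were tested between treatments, 32 with a positive and 24 with a negative log2 fold change (median 0.19), and 0 were called in either direction by edgeR. An unadjusted edgeR p under 0.05 was reached by 2 of the 56, beside 1669 of all 14462 genes tested. These 2 are named here after their values were seen. The kinase gene Txk was at 234.1 and 111.03 CPM on the vehicle plates against 0.0642 and 0 CPM on the imiquimod plates, and Dok1 at 51.3 and 0.102 CPM and at 0 on both imiquimod plates. Cd8a and Cd8b1 were not tested, with a count in 3 cells and in 1 cell. Among the genes of highest level in each role, the adaptor Skap1 was detected in 55.4% of the cells and was at 1999 and 916 CPM on the vehicle plates against 519 and 982 CPM on the imiquimod plates. The adaptor Fyb was detected in 89 cells, the phosphatase Ptprc (CD45, which acts on Lck) in 93, the receptor Cd6 in 56 and the co-stimulatory receptor Cd28 in 44. The kinase Fyn was detected in 47 cells, the signalling protein Malt1 in 51 and the transcription factor Nfatc2 in 57.

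Ptpn22, a phosphatase that acts on Lck and Zap70, was, of the 9 signalling genes named by that rule, the only one whose plates did not overlap. Such plates were found for 44.8% of all genes tested, and for other genes of the list, among them Cd27 and Cd48. For Ptpn22 this is therefore a description. Its levels were 169.01 and 376.9 CPM for vehicle and 1095 and 856 CPM for imiquimod, a log2 fold change of 1.84 ± 0.89 (SE, edgeR adjusted p = 0.44). The shares of cells with a Ptpn22 count were 31.7% for vehicle and 29.3% for imiquimod.

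The wells with 10 cells gave a second reading of the same plates. Median levels over the 16 wells were 887 CPM for Cd2, 411 for Lck, 362.4 for Cd3g, 288.9 for Lat, 254.7 for Cd3e, 181.3 for Cd3d, 157.9 for Cd4, 131.1 for Cd247 and 45.2 for Zap70. Were each well an even mix of independent cells at the single-cell shares of all plates, 92.4% of wells would hold Cd4. In the data 11 of 16 did. For Cd3g that share was 72.0%, and all 16 wells had a count. A well lies on its own plate and is not such a mix, so these shares are approximate. No shortfall of Cd4 or excess of Cd3g is drawn from them. In wells with 10 cells, fewer cells with a gene and less RNA per cell cannot be told apart. Cd3d was present in 14 wells, Cd3e, Cd247 and Cd2 in 15 each and Zap70 in 13.

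Summed per plate and compared with the sum of the kept single cells of the same plate, with the plate as a block, 0% of the 17059 genes tested were called higher and 0% lower in wells with 10 cells by edgeR. An unadjusted p under 0.05 was found for 455 genes. All 9 genes had an edgeR adjusted p of 1. Cd3d was higher in the 10-cell sum on 4 of 4 plates (log2 ratio 1.62 ± 0.92, SE), with 142.2, 53.7, 64.0 and 92.2 CPM in single cells and 380, 64.9, 2113 and 145.5 CPM in 10-cell wells. The ratio of Cd3d was 0.81 without plate 3, at most 2.22 with another plate left out, and 3.06 without the plate block. Cd3g was also higher on 4 of 4 plates (0.59 ± 0.67, SE). Cd247 was lower on 4 of 4 plates, with 745, 585, 366.5 and 459 CPM in single cells and 253.5, 433, 317.4 and 73.4 CPM in 10-cell wells (−1.20 ± 0.76, SE). Lck was lower on 3 of 4 plates and had the smallest unadjusted p of the 9 (−1.22 ± 0.47, SE, unadjusted edgeR p = 0.0182). Cd3e, Cd4 and Zap70 had log2 ratios of −0.31 ± 0.79, −0.39 ± 1.10 and −1.03 ± 1.30 (SE), with plates on both sides of 0. The ratio of Cd3e was 0.030 without plate 4, that of Cd4 was 0.50 without plate 2, and that of Zap70 was −0.057 without plate 4. Lat and Cd2 were closest to 0, at −0.07 ± 0.68 and −0.03 ± 0.43 (SE), and turned positive with DESeq2's size factors (0.27 and 0.31). The fold changes of all genes tested had a median of −0.59, with 6551 positive and 10508 negative. How many of all genes lay on 1 side on all 4 plates was not counted. The 4 of 4 plates of Cd3d, Cd3g and Cd247 are therefore a description. The 10-cell wells held a median of 6623.5 genes against 1101 in the kept cells, and the part of this in the ratios was not tested.

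**Figure D5:**
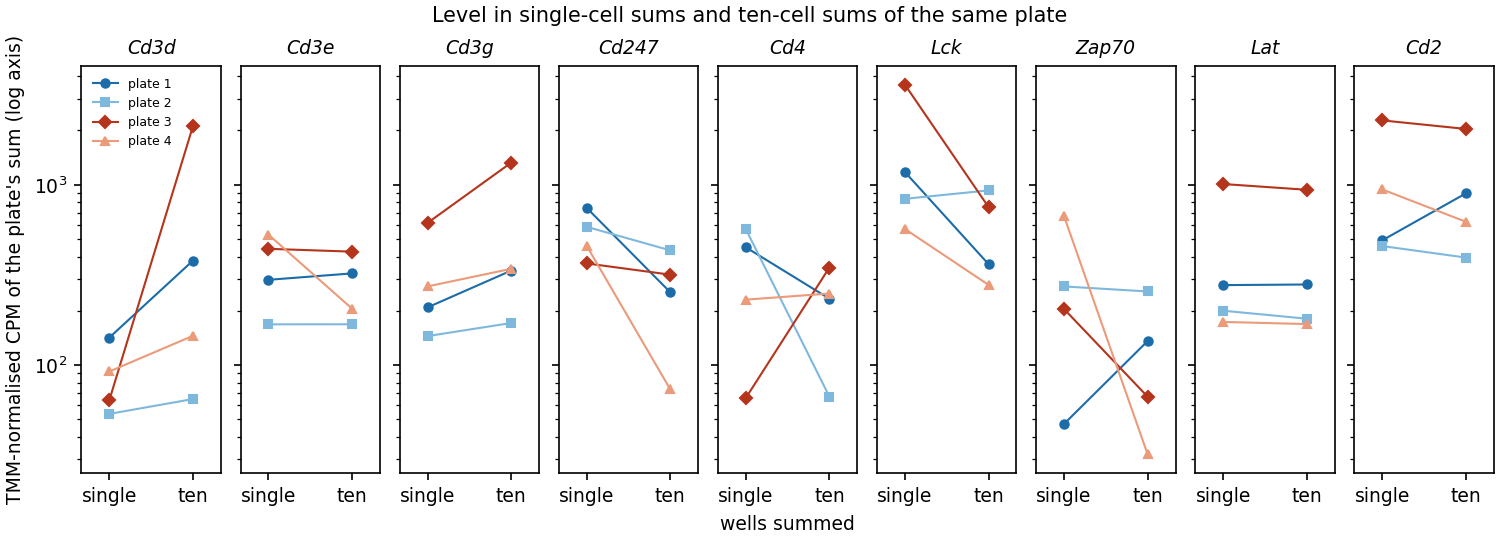
For each gene, the TMM-normalised level of the plate's sum (vertical axis, CPM, log scale) is shown for kept single cells and for the 4 wells with 10 cells of the same plate, joined by a line per plate. The 10-cell values of Cd3d and Cd3g lie above the single-cell values on all 4 plates and those of Cd247 below on all 4, and the other genes have lines in both directions.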

How the data were processed

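The 9 genes, the gene lists and the markers were chosen with earlier results of these data known. The authors deposited read counts, 1 value per gene and well, in 1 matrix whose wells all had different names, without molecular identifiers per the labels' protocols, which state 24 cycles of cDNA and 12 of library amplification. Trimmomatic 0.39, STAR 2.7.3a and SAMtools 1.12 with build mm39 are named in the submitters' processing notes. How reads were counted (tool, strand, annotation) is not given in the sources used here, so reads of overlapping genes cannot be told apart.

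Wells were grouped and given plates from the labels, and no 2 wells were identical. Cells needed at least 500 genes and 10000 counts. Wells were filled by sorting and doublets were not searched for, so a well with more than 1 cell would have been kept. The highest gene number of a kept cell was 8033, on vehicle plate 2. The 10-cell wells of that plate had a median of 7524 genes. Counts were summed per plate (67319087 to 99396458 in single cells, 11063967 to 26731936 in 10-cell wells). Cells of a plate were not treated as replicates. The plate sums were tested with edgeR 4.0.16 (R 4.3.3, default expression filter, TMM, quasi-likelihood, Benjamini-Hochberg over all genes, threshold 0.05), imiquimod against vehicle, and 10-cell against single-cell sums with the plate as a block, since both kinds of well share a plate per the labels. Alternatives used DESeq2 1.42.0, limma 3.58.1 with a pseudocount of 1 CPM, other filters, thinning and left-out plates. Shares were tested by exact permutation over plates. The edgeR script was tested on simulated data. All 9 genes were named; of the signalling list, where none was called, the 2 of highest mean level in each role, of which 1 gene is not reported here. Exon lengths and promoters came from reference tables of other builds than mm39, matched by symbol.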

Additional observations from a re-analysis of the deposited data

Results flagged for a closer look

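The ratio of the 10-cell to the single-cell level of Cd3e stood apart on 1 of 4 plates. It was a log2 ratio of −1.36 on plate 4 (imiquimod single cells), with 529 CPM in the single cells and 205.7 CPM in the 10-cell wells, against 0.12, 0.00134 and −0.0519 on the other plates. The gap to the nearest plate was 0.885 of the whole range, above Dixon's critical value for 4 values, which chance passes in about 1 of 20 groups. It was the only 1 of the 9 genes to do so.

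Among the single-cell wells that were not kept as cells, 35 (24.0%) had a count of at least 1 of the 9 genes, while 0 of the 20 no-cell wells had. Lck had a count in 8 of them, Cd247 and Cd2 in 7 each, Zap70 in 6, Cd3g in 5, and Cd3d, Cd3e and Cd4 in 4 each. Lat had 1 count in 1 well.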

How the results depend on the processing

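Between treatments, edgeR called 0 genes with TMM and with DESeq2 size factors, 9 without an expression filter, and between 0 and 794 with 1 plate left out, where the lone plate is assumed to vary like the others (1.02% of genes without imiquimod plate 1, 794 genes without imiquimod plate 2). DESeq2 called 3740, and 1 of the 9 genes. For 10-cell against single-cell sums, edgeR called 0 genes with the plate as a block and 0 without the block, and 3 without the expression filter, and DESeq2 called 1281. The causes were not tested.

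Fold changes between treatments changed sign for Cd3d with DESeq2 or its size factors (0.026), with cells of at least 1000 genes (0.13) and with plates left out (−0.92 to 0.50). With limma on mean log2(CPM + 1) they were −0.20 for Cd3e, −0.33 for Cd3g, −0.75 for Lck and −0.49 for Zap70. With plates left out they ran from −0.76 to 1.89 for Lck and from −0.39 to 2.14 for Lat, lowest without imiquimod plate 1. Among the 10-cell ratios, Cd3e was 0.025 with DESeq2, 0.024 with its size factors and −0.45 to 0.030 with plates left out, and Cd4 was −1.24 to 0.50 with plates left out. Lat was 0.095 without the block and 0.27 with DESeq2 or its size factors. Cd2 was 0.11 without the block, 0.31 with DESeq2 or its size factors, and −0.30 to 0.17 with plates left out (0.062 without plate 2, 0.049 without plate 3). The block changed no other sign and no call.

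Differences in share (imiquimod minus vehicle, percentage points) changed sign with plates left out for Cd3d (−9.73 to 1.01), Cd3e (−0.632 to 2.96), Zap70 (−14.8 to 0.0174), Lat (−8.66 to 3.66), Cd2 (−2.60 to 4.46, and −1.41 without imiquimod plate 1), any CD3 or zeta chain (−2.18 to 1.52) and none of the 9 (−3.61 to 6.02, and −1.13 without imiquimod plate 1). At a minimum of 10 counts the difference was −3.12 for Cd3e, 0.839 for Lat and −5.50 for none of the 9, and at 10 CPM 0.0323 for Lat and −2.64 for none of the 9. In all single-cell wells it was −5.75 for Cd3e and −6.90 for Cd2, after thinning −5.94 for Cd3e, and with cells of at least 1000 genes 2.30 for any CD3 or zeta chain. Cd3g, Cd247, Cd4 and Lck kept a negative difference in all alternatives run.

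The ratio of joint detections, 2.01, was 2.31 with at least 10 counts, 1.51 with cells of at least 1000 genes, 2.69 over all single-cell wells, 1.44 on either side of the median yield and 1.28 in 3 yield classes. Reads without molecular identifiers limit what a single count shows.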
